A study of Mus musculus with 16 samples.

Results

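The collagen, laminin and integrin genes of mouse P19 cells were followed across 4 conditions on 1-colour arrays. A gene belonged to the group if the array's gene name was that of a collagen chain, a laminin alpha, beta or gamma chain, or an integrin alpha or beta subunit, with Itgbl1, which is no integrin subunit, left out. The rule used names alone and no measured value. It found 82 of the 30040 gene names on the array: 44 collagen, 11 laminin and 27 integrin genes, read by 122 probes. P19 is an established mouse embryonal carcinoma line. The control cells are labelled as such. The let-7a cells were transfected with a mimic of the microRNA let-7a, the siSfpq cells with small interfering RNAs against Sfpq, a nuclear protein that binds RNA and DNA, and the let-7a + siSfpq cells with both reagents. The methods give a transfection of 48 h and 24 nM of each reagent, and they describe controls with a control siRNA and a control mimic for a parallel experiment in the same 4 conditions. Each condition had 4 arrays. Arrays 1 and 2 of a condition differed by less than repeated spots of a single probe and were averaged and counted as 1 sample, so each condition had 3 samples, called replicates 1 and 2 (averaged), replicate 3 and replicate 4.

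Collagens are secreted trimeric proteins that give tissues their tensile strength or, as the network-forming type IV chains, hold the basement membrane together. Laminins are cross-shaped heterotrimers of an alpha, a beta and a gamma chain and form the other polymer of the basement membrane. Integrins are the alpha-beta heterodimers in the plasma membrane through which cells hold on to these proteins and to ligands such as fibronectin. Embryonal carcinoma cells and early embryos are known to make laminin with the alpha1, beta1 and gamma1 chains and type IV collagen. Let-7 microRNAs pair through their seed, bases 2 to 8, with sites in messenger RNAs and lower the output of these.

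The mature let-7a sequence is shown because the mimic pairs with transcripts mainly through its seed. The first sequence below is from RefSeq (Mirlet7a-1, chr13:48538239-48538260, minus strand, GRCm38.p6) with the seed in capitals. The second is a window of 30 bases from an array probe for Itga6, the integrin alpha6 chain that binds laminin. Capitals there mark the reverse complement of the seed followed by an A. The whole probe lies at chr2:71690633-71690692 (mm9, plus strand).
mmu-let-7a-5p: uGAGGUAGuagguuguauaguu
Itga6 probe window: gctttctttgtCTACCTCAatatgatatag
Of the 122 member probes, 1 held the 7 letters CTACCTC, against 204 of 55681 probes on the array (0.366%). This search covered the letters of the probes alone, and the rest of each transcript was not searched. The Itga6 probe with the match changed by -0.26 with let-7a on the log2 scale (adjusted p = 0.174, limma at the probe level), and the other Itga6 probe, without it, changed by 0.10 (adjusted p = 0.725).

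Of the 82 genes, 62 were measured: 33 collagen, 9 laminin and 20 integrin genes had a probe that passed the scanner's background test throughout the 4 arrays of 1 or more conditions and had a value on every array. Of these, 54 were above background on all 16 arrays. The other 20 were Col4a3, Col6a3, Col6a6, Col10a1, Col13a1, Col15a1, Col17a1, Col19a1, Col24a1, Col25a1, Col28a1, Lamb3, Lamc3, Itga2, Itga2b, Itgad, Itgae, Itgax, Itgb2l and Itgb6, and they were not tested. Lamc3 passed the background test on the 4 let-7a arrays, but 1 control array had no value for it after outlier spots were set aside. Chains of epithelial anchoring (Col17a1, Lamb3, Itgb6) and of leukocytes and platelets (Itgad, Itgae, Itgax, Itga2b) were among them. Levels are log2 values of quantile-normalized intensity, and differences between conditions are log2 changes, so that 1 is a doubling. Each p-value is limma's, adjusted by the Benjamini-Hochberg method over all 19592 genes tested, and a gene is called at an adjusted p under 0.05. The methods describe the replicates as transfected P19 cells but do not say whether they were separate cultures, so these p-values measure only the spread between these samples, which may be technical.

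Arrays had between 33733 and 38464 of 59305 spots well above background. The embryonal carcinoma marker list had 9 of its 10 genes above background on every array. Its summed intensity ran from 71100 to 81500 in control, 48000 to 64800 in let-7a, 82600 to 92300 in siSfpq and 64400 to 70300 in let-7a + siSfpq samples, so the first 3 conditions did not overlap. Of the 9 genes tested, 3 were called lower with let-7a, 2 higher and 1 lower with siSfpq, and 3 lower in let-7a + siSfpq against siSfpq cells. The level of Sfpq was 12.01 ± 0.05 (SD, n = 3) in control and 10.88 ± 0.51 in siSfpq cells, a fall of 1.13 (adjusted p = 0.00805), with falls of 1.52, 0.52 and 1.36 in replicates 1 and 2, 3 and 4. In let-7a + siSfpq cells Sfpq stood at 11.40 ± 0.09, 0.52 above siSfpq cells (adjusted p = 0.105; 0.0393 when replicates were blocked). So replicate 3 carried the smallest knockdown, and the cells with both reagents held more Sfpq mRNA than those with siSfpq alone in the 3 replicates. The summed intensity of the 10 neuron markers ran from 41200 to 48800 in control, 55100 to 74100 in let-7a, 23100 to 31700 in siSfpq and 35100 to 37900 in let-7a + siSfpq samples, all 10 genes being above background throughout, with 8 called higher with let-7a and 7 lower with siSfpq. The summed mesenchyme and fibroblast markers ran from 9250 to 9360, 7850 to 11100, 12900 to 19700 and 14800 to 16700 in the same order, with Fap above background on no array of the first 3 conditions. The part of these shifts in the changes below was not tested. In such bulk RNA, fewer cells of a type and less RNA per cell cannot be told apart.

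With let-7a, 4 members rose and 2 fell, 6 of 62, where 6.3% of all genes tested were called (4.49% higher and 1.82% lower). With siSfpq, 1 rose and 10 fell, 11 of 62, beside a background of 12.5% (5.73% higher and 6.77% lower). The members' median change with siSfpq was -0.37 against 0.0068 for all genes, and 51 of 62 lay below 0; with let-7a it was -0.03 against -0.04 (-0.09 to 0.03 over the alternative settings), and 32 lay below 0. Samples of the 2 conditions did not overlap for 20 members lower and 2 higher in siSfpq cells, where 13.8% and 14.9% of all genes were so separated, and for 12 lower and 16 higher in let-7a cells, where the shares were 14.1% and 15%. The siSfpq median was -0.17 with normexp background correction, -0.18 with no filter on dim probes, -0.21 without replicate 4, and -0.24 without siSfpq replicate 4 and on the values the authors deposited. Over the 54 members above background on all 16 arrays it was -0.32, against 0.02 for all genes filtered in this way. The other measured members entered through fewer than 4 conditions, so the filter could bear on the sign of their changes.

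**Figure D1:**
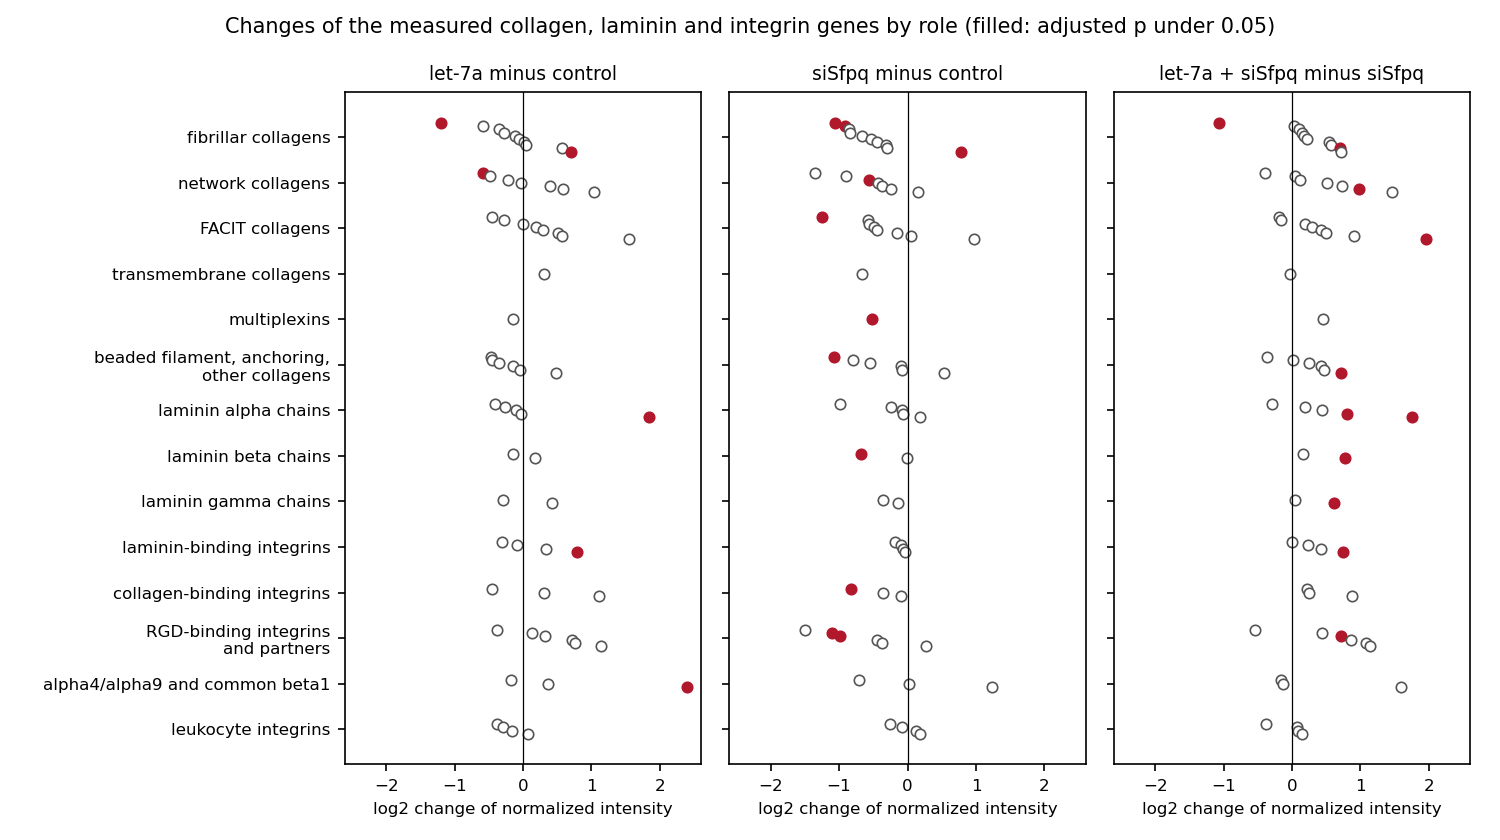
Log2 change of each of the 62 measured genes (points; 1 point per gene, rows by role) for let-7a against control, siSfpq against control and let-7a + siSfpq against siSfpq; filled points have an adjusted p under 0.05. With siSfpq 51 of the 62 points lie left of 0, and in let-7a + siSfpq against siSfpq 51 lie right of 0; these 2 comparisons share the siSfpq samples.

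The gene with the largest called change after let-7a was Itga4, the integrin alpha4 chain, whose dimers bind fibronectin and the vascular ligand VCAM-1. The probe measured lies at chr2:79173193-79173252 (mm9), and a second Itga4 probe was above background on 0 of 16 arrays. Its level was 6.18, 5.49 and 5.90 in the control samples (replicates 1 and 2, replicate 3 and replicate 4) and 8.48, 7.83 and 8.45 in the let-7a samples. The lowest let-7a sample was thus well above the highest control, and Itga4 rose by 2.39 (SE 0.51, adjusted p = 0.0186), or by 1.30 as the mean of both probes with no filter on dim probes. The siSfpq samples were far apart, at 4.87, 4.02 and 6.55, and the samples with both reagents stood at 6.95, 6.22 and 7.07.

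Lama2, the alpha chain of the laminin of muscle and nerve basement membranes, was at 5.52, 4.72 and 5.15 in control and 7.46, 6.05 and 7.38 in let-7a samples, a rise of 1.84 (SE 0.45, adjusted p = 0.0331). The let-7a samples were all higher than the controls, with replicate 3 nearest to them. Both Lama2 probes changed alike, by 1.87 and 1.81, and the rise was 0.96 with normexp and 1.17 on the deposited values. Itga7, a laminin-binding integrin chain of muscle, rose by 0.78 (SE 0.15, adjusted p = 0.012), from 7.16, 6.75 and 7.23 to 7.84, 7.88 and 7.78, again without overlap. The other 3 laminin-binding chains, Itga3, Itga6 and Itgb4, were not called. Itga6 changed by -0.08 (adjusted p = 0.659).

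Among fibrillar collagens, Col1a2, which encodes the alpha2 chain of type I collagen, rose by 0.71 with let-7a (SE 0.18, adjusted p = 0.04), from 9.80, 9.88 and 9.69 to 10.73, 10.24 and 10.52. Its partner chain Col1a1 did not follow: it was at 6.54, 7.66 and 6.81 in control and 6.38, 7.18 and 6.38 in let-7a samples, a change of -0.36 (SE 0.40, adjusted p = 0.724), and the samples overlapped. Col27a1, a fibrillar collagen of cartilage, was at 5.96, 5.64 and 6.04 in control and 4.59, 4.92 and 4.52 in let-7a samples and fell by 1.20 (SE 0.23, adjusted p = 0.0114). The change was -0.44 with normexp and -0.61 on the deposited values. Its probe lies at chr4:62995485-62995544 (mm9).

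Col4a2, a chain of the basement membrane network, fell by 0.59 with let-7a (SE 0.15, adjusted p = 0.0355), from 10.30, 10.33 and 10.15 to 9.63, 9.73 and 9.65. Col4a1, which pairs with it in the main type IV trimer and is transcribed from the same bidirectional start region, changed by -0.48 (SE 0.16, adjusted p = 0.113; 0.0212 when replicates were blocked). Its 3 let-7a samples, 9.49, 9.31 and 9.32, were likewise all under the 3 controls, 9.96, 9.84 and 9.74. The ubiquitous laminin alpha5 chain gene Lama5 changed by -0.41 (adjusted p = 0.0505; 0.0189 with the block), and Lamb1 and Lamc1 changed by -0.15 and -0.30 (adjusted p = 0.39 and 0.151).

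Of the integrin chains that bind fibronectin and vitronectin, Itga5 changed by 0.32 and Itgav by -0.37 with let-7a, and Itgb1, the common beta chain, by -0.18, all uncalled (adjusted p = 0.382, 0.283 and 0.541). With replicates blocked, 12 members were called higher and 5 lower with let-7a, beside 20.9% of all genes (11% higher and 9.91% lower). Without all replicate 4 arrays, or without all arrays 1 and 2, 0 members were called, beside 0.0102% and 0.0153% of all genes, and without replicate 3 there were 26, beside 28%. Dropping a single sample gave 2 without control arrays 1 and 2 (2.95% of all genes), 2 without control replicate 3 (3.35%), 1 without control replicate 4 (2.86%), 0 without let-7a arrays 1 and 2 (2%), 0 without let-7a replicate 4 (1.99%), 3 without let-7a + siSfpq replicate 4 (4.93%) and 13 without siSfpq replicate 3 (11.8%).

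With siSfpq, the members that fell came from several families. Among fibrillar collagens these were Col2a1, the collagen of cartilage, and Col5a3, a minor chain of type V collagen. Col2a1 was at 9.63, 9.64 and 9.55 in control and 8.50, 9.18 and 8.40 in siSfpq samples, a fall of 0.91 (SE 0.17, adjusted p = 0.0118). Col5a3 was at 8.24, 7.27 and 8.30 in control and 6.70, 6.81 and 7.12 in siSfpq samples, a fall of 1.06 (SE 0.29, adjusted p = 0.0389). In neither gene did the conditions overlap. For Col2a1 the siSfpq sample nearest to control was replicate 3.

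Col27a1 was the only member called higher with siSfpq, at 6.87, 6.25 and 6.86, all above its 3 controls (0.78, SE 0.23, adjusted p = 0.0489; 0.42 with normexp). It was therefore called in opposite directions with the 2 reagents, each against the same control samples. The type I chains were not called: Col1a2 changed by -0.54 (adjusted p = 0.0729; 0.0314 with the block) and Col1a1 by -0.84 (adjusted p = 0.191; 0.00844 with the block), the latter over controls that ranged from 6.54 to 7.66. Within each replicate Col1a1 was lower in siSfpq cells, by 0.74, 0.57 and 1.20.

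Col22a1, a fibril-associated collagen of tissue junctions, had the largest called fall, 1.25 (SE 0.27, adjusted p = 0.0183), from 8.72, 8.42 and 8.70 to 7.05, 8.05 and 7.01. Replicate 3 moved far less than the others. Col6a1, a chain of the beaded microfibrils that surround cells, was at 6.33, 6.08 and 6.23 in control and 5.04, 5.26 and 5.10 in siSfpq samples, a fall of 1.08 (SE 0.17, adjusted p = 0.00697). Its probe lies at chr10:76171538-76171597 (mm9). The fall was 1.28, 0.82 and 1.13 in replicates 1 and 2, 3 and 4, so replicate 3 fell as well. The change was -0.47 with normexp and -0.67 on the deposited values. Col18a1, the basement membrane collagen from which endostatin is cut, fell by 0.52 (SE 0.15, adjusted p = 0.0403), but replicate 3 changed by 0.02 and the conditions overlapped; without replicate 3 the change was -0.78. Its 2 probes changed by -0.68 and -0.36, of which the first was called.

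Col4a2 fell by 0.56 with siSfpq as well (SE 0.15, adjusted p = 0.0308), to 9.61, 10.02 and 9.46. It was the only member called lower with each of the reagents on its own, against shared controls. Col4a1 changed by -0.37 (adjusted p = 0.144; 0.0366 with the block). Among laminins, Lamb2, the beta2 chain of synaptic and kidney basement membranes, fell by 0.68 (SE 0.19, adjusted p = 0.0422), from 10.43, 10.02 and 10.37 to 9.49, 9.74 and 9.54. The chains of the embryonic laminin were not called: Lama1 changed by -0.06, Lamb1 by -0.01 and Lamc1 by -0.14 (adjusted p = 0.875, 0.962 and 0.454), as was Lama5 (-0.25, adjusted p = 0.161).

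Of the integrin genes, 3 fell with siSfpq. Itgb5, a beta chain that pairs with alphav to bind vitronectin, was at 13.62, 13.71 and 13.54 in control and 12.42, 13.06 and 12.44 in siSfpq samples, a fall of 0.98 (SE 0.15, adjusted p = 0.00631). Itgb3, the other well-known partner of alphav, fell by 1.10 (SE 0.29, adjusted p = 0.0331), from 6.34, 6.59 and 6.53 to 5.34, 6.10 and 4.74. This is the value of 1 of its 2 probes; the other was above background on 0 of 16 arrays, and with no filter on dim probes the mean of both changed by -0.0063. The measured probe changed by -0.55 with normexp and -0.72 on the deposited values. The probes of Itgb5 and Itgb3 lie at chr16:33949123-33949182 and chr11:104531672-104531731 (mm9). All siSfpq samples were below all controls for both genes, and replicate 3 was again nearest to control. Their partner Itgav changed by 0.27 (adjusted p = 0.36).

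Itga10, a collagen-binding alpha chain of cartilage, fell by 0.82 (SE 0.19, adjusted p = 0.0228), from 8.15, 7.96 and 8.08 to 7.10, 7.63 and 6.99, and its 2 probes changed by -0.84 and -0.81. Itgb1, the beta chain that alpha10 pairs with, changed by 0.03, and Itga5 and Itga6 by -0.44 and -0.09 (adjusted p = 0.928, 0.131 and 0.48). Itgb8 was above background on no siSfpq array, and no fold could be given for it.

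The members' median siSfpq change was -0.43, -0.10 and -0.60 in replicates 1 and 2, 3 and 4, the smallest being that of the replicate in which Sfpq fell least. For 49 of the 62 members (79%) the absolute change was smallest in replicate 3, as it was for 66.1% of all genes. Some members went the other way, such as Itga4, which changed by -1.31, -1.47 and 0.65. Whether the size of the knockdown set these changes was not tested. With replicates blocked, 24 members were called lower and 3 higher with siSfpq, beside 36.9% of all genes (19.1% lower and 17.8% higher); without replicate 3 the counts were 30 and 5, beside 47.2%. Without arrays 1 and 2 of every condition, or without replicate 4, 0 members and 0% of all genes were called. Dropping a single sample gave 2 without control arrays 1 and 2, control replicate 4, siSfpq arrays 1 and 2 or siSfpq replicate 4 (1.37% to 1.79% of all genes), 7 without let-7a arrays 1 and 2 (9.36%) or let-7a + siSfpq replicate 4 (9.08%), 6 without let-7a replicate 4 (8.94%) and 30 without siSfpq replicate 3 (33.5%). A fit on the siSfpq and control samples alone called 0 members and 0% of all genes.

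**Figure D2:**
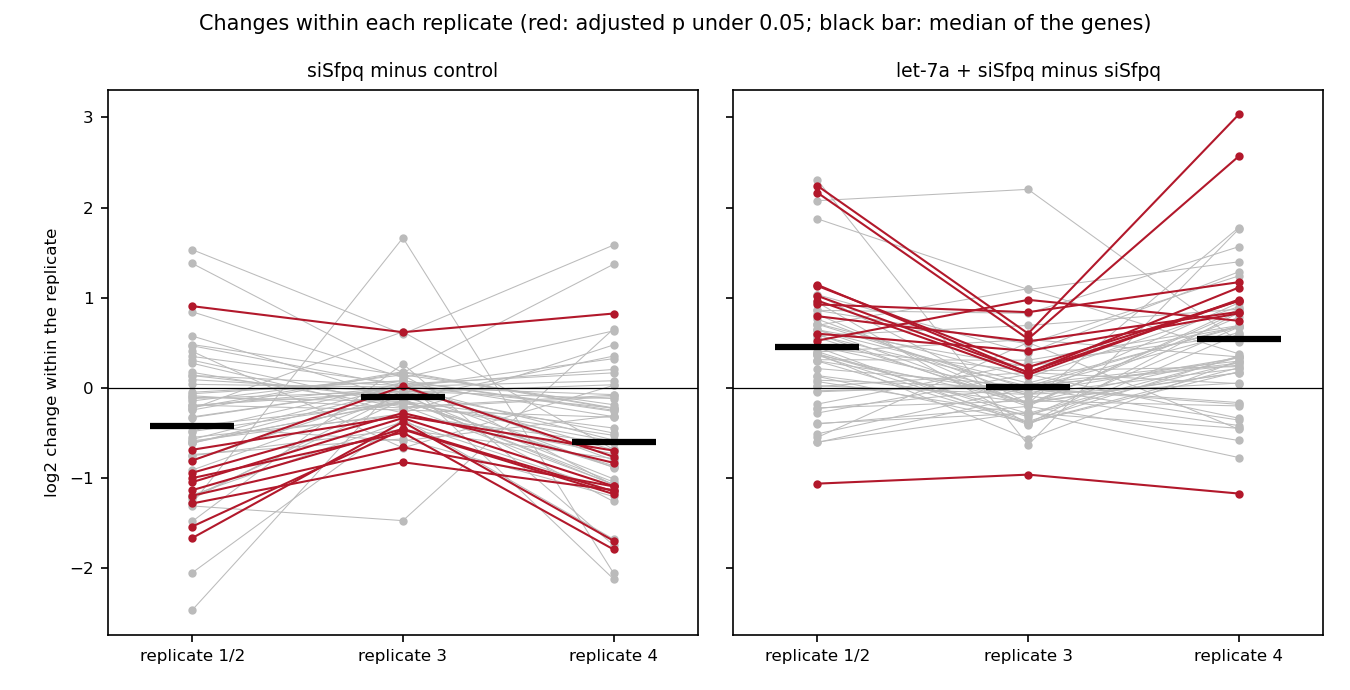
Log2 change within each replicate for the 62 genes (points; lines join the values of 1 gene, and the order of replicates has no meaning) for siSfpq against control and let-7a + siSfpq against siSfpq; red genes have an adjusted p under 0.05 and black bars are the medians. The siSfpq medians are -0.43, -0.10 and -0.60, and the medians of the second panel are 0.46, 0.0078 and 0.55, both nearest to 0 in replicate 3.

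The promoters of members called with siSfpq were read from RefSeq (GRCm38.p6) to show what lies before the start of those that fell. Of the 82 members 59 had an entry, and of the 11 called with siSfpq 8 had one. The 4 sequences below are the 100 bases before the start for members that fell, whose entry was the first annotated start of the gene and whose window lay in no other annotated gene. The window of Col4a2 lay within Col4a1, and the entries of Col27a1 (the member that rose), Col5a3 and Lamb2 were not at the first annotated start, so these are not shown. Capitals mark the GC box letters GGGCGG or their reverse complement CCGCCC, the core of the site bound by Sp1. The windows are chr10:77166531-77166630 (minus strand) for Col18a1, chr16:33829565-33829664 (plus) for Itgb5, chr10:76726045-76726144 (minus) for Col6a1 and chr3:96645484-96645583 (plus) for Itga10.
Col18a1: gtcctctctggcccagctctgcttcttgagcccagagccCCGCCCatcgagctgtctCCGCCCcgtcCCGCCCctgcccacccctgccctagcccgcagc
Itgb5: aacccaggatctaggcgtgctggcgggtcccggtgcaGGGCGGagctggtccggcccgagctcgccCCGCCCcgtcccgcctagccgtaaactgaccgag
Col6a1: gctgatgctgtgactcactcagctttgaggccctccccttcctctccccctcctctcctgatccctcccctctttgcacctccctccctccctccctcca
Itga10: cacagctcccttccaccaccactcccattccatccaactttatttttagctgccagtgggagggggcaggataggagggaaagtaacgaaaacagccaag
Col18a1 held 3 matches and Itgb5 2, and Col6a1 and Itga10 held none in this window. Counting both strands, the letters occurred in 36.9% of the 65 member windows, in 46.8% of the 47 windows of members that were measured, and in 24.7% of 32851 windows of all genes. Among windows of members called lower with siSfpq they occurred in 4 of 8, near the share of the measured members. CCAAT or ATTGG, the box bound by NF-Y, occurred in 7.69% of member windows and 18.9% of all, and TATAAA or TTTATA in 3.08% and 5.56%.

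With both reagents, 1 member was called against control, where 1.33% of all genes were (1.12% higher and 0.204% lower). Col4a5, a type IV chain of the kidney filter membrane encoded on the X chromosome, rose by 0.73 (SE 0.13, adjusted p = 0.023). It was at 7.61, 7.52 and 7.59 in control, 7.98, 8.04 and 7.88 in let-7a, 7.41, 7.47 and 7.09 in siSfpq and 8.34, 8.31 and 8.26 in let-7a + siSfpq samples. The last were above all other samples, and Col4a5 was also higher than in siSfpq cells alone, by 0.98 (SE 0.13, adjusted p = 0.00297). With replicates blocked, 4 members were called higher and 2 lower against control, beside 7.6% of all genes (4.96% higher and 2.64% lower). Without arrays 1 and 2 of every condition or without replicate 4 the count was 0, beside 0% of all genes, and it was 15 without replicate 3, beside 16.8%. It was also 0 without each control sample in turn (0.373% to 0.556% of all genes) and without let-7a + siSfpq arrays 1 and 2 or replicate 4 (0.255%), and 7 without siSfpq replicate 3 (3.45%).

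Against siSfpq alone, the addition of let-7a was followed by 10 called rises and 1 fall among the 62 members, 17.7%, beside 9.27% of all genes (5.57% higher and 3.7% lower). The siSfpq samples enter both this comparison and that with control. Mean Sfpq mRNA was itself less reduced in the cells with both reagents, a difference that was not called in the main fit. The part of this in the changes was not tested. Of the 10 rises, those of Lama2 and Col12a1 were from siSfpq levels not above background on every array, and the other 8 were between measured levels. Among the 54 members above background on all 16 arrays, 8 rose and 1 fell (16.7%), beside 8.99% of the 17559 genes of that kind. With the fit on probes of that kind alone, the median change was 0.23 for members and -0.03 for all genes. The members' median change was 0.27 against -0.02 for all genes (0.17 with normexp or with no filter, 0.41 with the brightest probe or without siSfpq replicate 3 and 0.45 without replicate 3), and the conditions did not overlap for 18 members higher and 1 lower, beside 12.3% of all genes in each direction.

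Among laminin genes, Lama1 rose by 0.81 (adjusted p = 0.03) and Lamb2 by 0.78 (adjusted p = 0.0341). Lama2 stood at 4.04, 4.99 and 3.40 in siSfpq samples, where it was above background on 2 of 4 arrays, and at 6.20, 5.53 and 5.97 with both reagents. With each siSfpq array raised to the lowest signal well above background on it where Lama2 was dimmer, Lama2 was at least 2.61-fold higher with both reagents (adjusted p = 0.0359 in the fit of the measured values). The fitted change was 0.59 with normexp and 0.85 on the deposited values. Lamb2 stood at 10.62, 9.97 and 10.51 with both reagents, above its 3 siSfpq samples, and its change from control was 0.09 (adjusted p = 0.959).

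Of the collagens, Col12a1, which coats fibrils of tendon and fascia, was at 2.50, 4.37 and 1.74 with siSfpq and at 4.74, 4.97 and 4.78 with both. It entered the tests through the let-7a and let-7a + siSfpq arrays, being above background on 1 of 4 control and 1 of 4 siSfpq arrays. A gene that enters through the conditions where it is high had to differ, so its call (adjusted p = 0.0485 in the fit of the measured values, lost in 18 of 26 alternative settings) carries no weight of its own. By the same bound it was at least 1.43-fold higher with both reagents than with siSfpq. The fitted change of Col12a1 was 0.30 with normexp and 0.57 on the deposited values. Col1a2 rose by 0.70 (adjusted p = 0.0377), to 10.18, 9.74 and 9.94. Col6a1 rose by 0.72 (adjusted p = 0.0288; 0.29 with normexp and 0.42 on the deposited values), to 5.84, 5.78 and 5.94. Col6a1 thus lay between its siSfpq and its control samples with no overlap on either side. Col27a1 was the only member that fell, by 1.07 (adjusted p = 0.0219), to 5.81, 5.29 and 5.69, with changes of -0.53 with normexp and -0.71 on the deposited values.

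The integrin genes called against siSfpq were Itga7 and Itgb5. Itga7 rose by 0.75 (adjusted p = 0.0175), from 7.11, 6.83 and 6.98 to 7.64, 7.81 and 7.72. Itgb5 rose by 0.72 (adjusted p = 0.018), to 13.44, 13.23 and 13.41, each above its siSfpq partner and below the lowest control. With replicates blocked, 22 members were called higher and 3 lower, beside 32.5% of all genes (17.1% higher and 15.4% lower); without replicate 3 the counts were 30 and 7, beside 45.4%, and without replicate 4 or without arrays 1 and 2 they were 0, beside 0%. Dropping a single sample gave 1 without let-7a + siSfpq arrays 1 and 2, let-7a + siSfpq replicate 4 or siSfpq arrays 1 and 2 (1.4% to 1.76% of all genes), 2 without siSfpq replicate 4 (1.49%), 7 without control arrays 1 and 2, control replicate 4 or let-7a replicate 4 (5.1% to 5.65%) and 27 without siSfpq replicate 3 (29.8%). A fit on these 2 conditions alone called 0 members and 1.02% of all genes.

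Against let-7a alone, the addition of siSfpq was followed by 1 called rise and 1 fall, beside 2.82% of all genes (0.812% higher and 2.01% lower). Col6a1 fell by 0.84 (SE 0.17, adjusted p = 0.0263), from 6.80, 6.42 and 6.86 in let-7a samples, with changes of -0.44 with normexp and -0.54 on the deposited values. Lama1, the alpha chain of the embryonic laminin, rose by 0.85 (SE 0.19, adjusted p = 0.0425). With replicates blocked, 4 members were called higher and 7 lower, beside 12.2% of all genes (5.49% higher and 6.74% lower). The count was 0 without replicate 4 or without arrays 1 and 2 (0% of all genes), 21 without replicate 3 (24.8%), 1 without control arrays 1 and 2, control replicate 3 or siSfpq arrays 1 and 2 (1.73% to 2.52%), 0 without control replicate 4 (1.68%) and without let-7a arrays 1 and 2, let-7a replicate 4 and let-7a + siSfpq arrays 1 and 2 or replicate 4 (0.138% to 0.301%), and 9 without siSfpq replicate 3 (7.67%).

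Lama1 had its highest levels with both reagents. Its probe lies at chr17:68171924-68171983 (mm9). Lama1 was at 12.62, 12.89 and 12.60 in control, 12.55, 12.92 and 12.31 in let-7a and 12.47, 13.04 and 12.41 in siSfpq samples, which all overlapped, and at 13.61, 13.21 and 13.52 with both reagents, above every other sample. Its partner chain Lamb1 was at 14.85, 14.80 and 14.79 in control, 14.68, 14.75 and 14.57 in let-7a, 14.89, 14.81 and 14.72 in siSfpq and 15.10, 14.83 and 14.97 in let-7a + siSfpq samples, also highest with both reagents within each replicate, though the control and the siSfpq samples both overlapped these. Lamc1 ranged from 13.20 to 13.77 over the 12 samples. The interaction, that is the let-7a change with siSfpq minus that without, was 0.92 for Lama1 (SE 0.28, adjusted p = 0.799), 0.31 for Lamb1 (SE 0.12, adjusted p = 0.81) and 0.35 for Lamc1 (SE 0.16, adjusted p = 0.828), the same sign in each, and the difference between the chains was not tested.

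In the interaction limma called 0 members and 0% of all genes; 13 members and 1181 of all genes had an unadjusted p under 0.05. With replicates blocked 0 members were called, and 4 of all genes, 0.0204%, all lower. The members' median interaction was 0.21 against 0.01 for all genes, and 47 of 62 lay above 0. That median was 0.11 with normexp, 0.12 on the deposited values and without replicate 4, and 0.32 without replicate 3 and without siSfpq replicate 3. Without replicate 3, 24 members were called, 22 of them above 0, beside 20.8% of all genes, among them Lama1 at 1.30 (adjusted p = 0.000939), and without siSfpq replicate 3 alone there were 10, beside 6.89%.

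**Figure D3:**
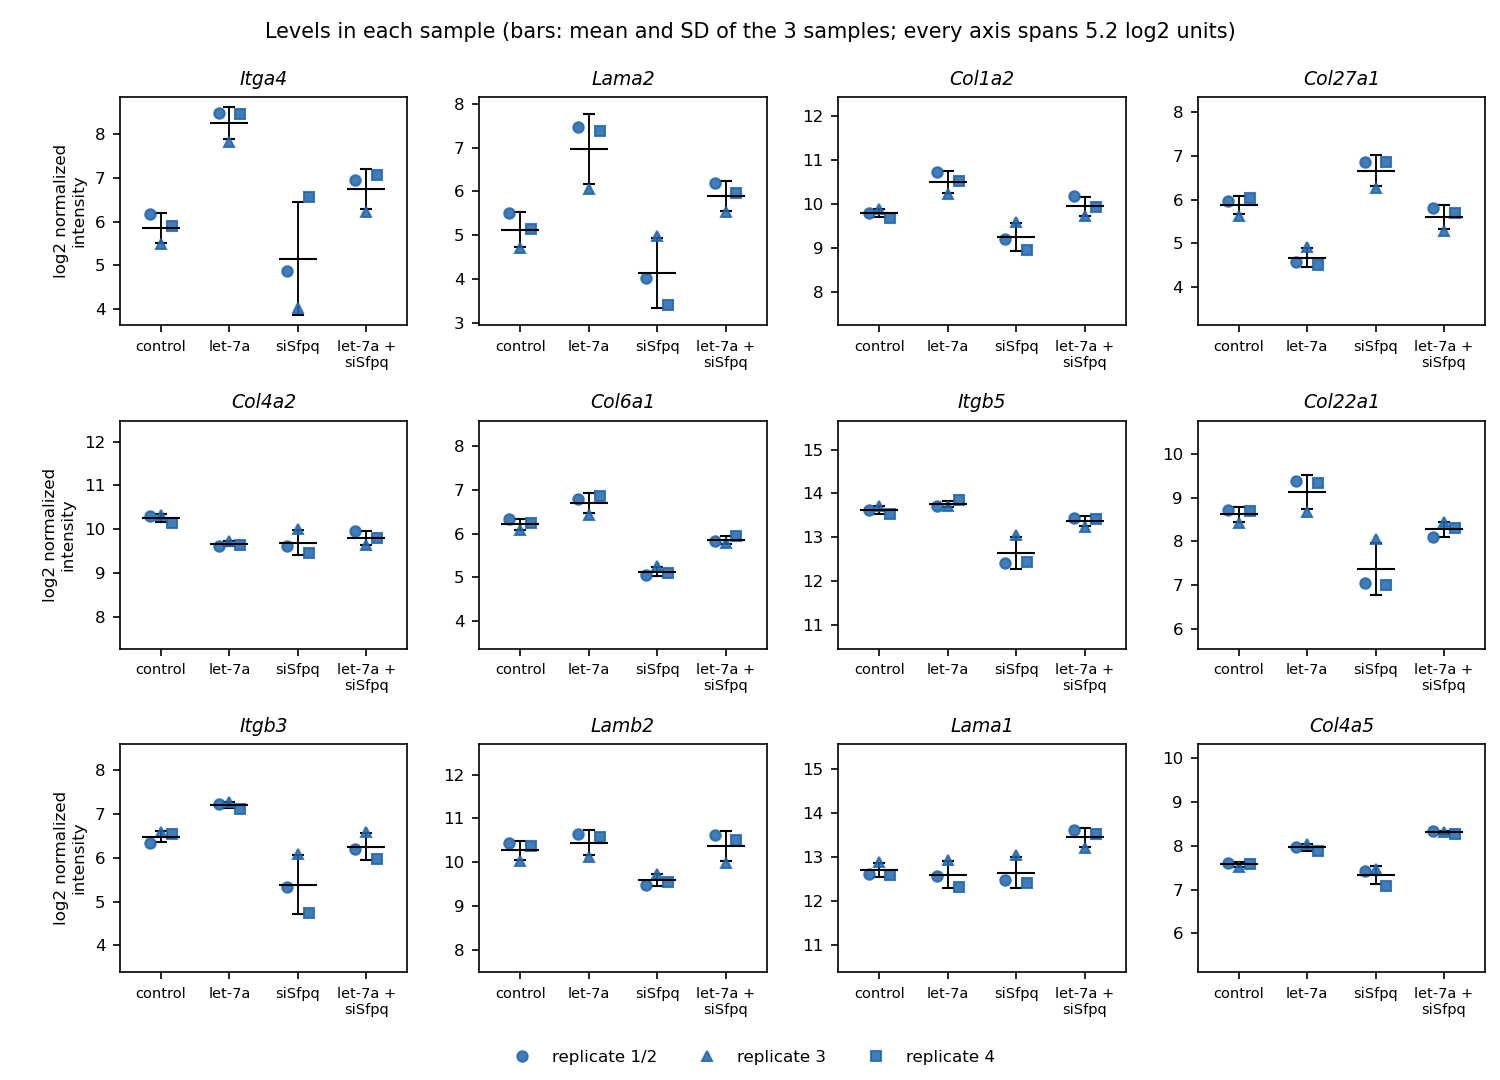
Log2 normalized intensity (vertical axes, each spanning 5.2 log2 units) of 12 of the genes named in the text in each of the 12 samples; symbols give the replicate, and bars the mean and SD of 3 samples. Itga4 and Lama2 have their highest means in let-7a, Itgb5 and Col6a1 are lowest in siSfpq samples, and Lama1 and Col4a5 are highest in let-7a + siSfpq samples.

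Genes that make, crosslink or hold these proteins were counted from lists of names. Of all genes, 6.3%, 12.5% and 9.27% were called with let-7a, with siSfpq and in let-7a + siSfpq against siSfpq cells. By direction, 4.49% rose with let-7a, 6.77% fell with siSfpq and 5.57% rose against siSfpq. Whether the shares of the lists differed from these was not tested. Of 23 measured genes of collagen processing and crosslinking, 0 were called with let-7a and 3 fell with siSfpq (13% of the list). In let-7a + siSfpq against siSfpq cells 3 rose (13%). The last were Pcolce, which helps cut procollagen (1.41, adjusted p = 0.00486), the lysyl hydroxylase gene Plod2 (1.37, adjusted p = 0.0335) and the prolyl hydroxylase gene P4ha1 (1.21, adjusted p = 0.0196). The medians over the 23 were 0.0059 with let-7a, -0.29 with siSfpq and 0.16 in the last comparison.

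Of 17 basement membrane partners and other adhesive ligands, 0 were called with let-7a, 3 fell with siSfpq (17.6%) and 4 rose in the last comparison (23.5%). Frem1, a basement membrane protein of the developing skin, fell by 1.70 with siSfpq (adjusted p = 0.0189) and rose by 1.34 against siSfpq (adjusted p = 0.0479), and Nid1, the laminin-collagen IV linker nidogen, rose by 1.0002 (adjusted p = 0.0386). The cell-binding ligand Spp1 was called against control with both reagents (1.01, adjusted p = 0.0486). Nid1 rose by 0.55 with normexp and 0.67 on the deposited values, and Spp1 changed by 0.36 with normexp and by 0.51 on the deposited values, where it was not called (adjusted p = 0.104).

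Of 9 other receptors for collagen and laminin, 1 rose with let-7a (11.1%), 1 rose and 1 fell with siSfpq (22.2%), and 2 rose against siSfpq (22.2%). Of the receptor tyrosine kinase genes for collagen, Ddr2 rose by 2.55 with let-7a (adjusted p = 0.00197), by 2.11 with both reagents against control (adjusted p = 0.0142) and by 1.39 against siSfpq (adjusted p = 0.0338), and Ddr1 fell by 1.23 with siSfpq (adjusted p = 0.0169) and rose by 1.22 against siSfpq (adjusted p = 0.0211). The 3 Ddr2 changes were 0.77, 0.57 and 0.43 with normexp and 1.18, 0.90 and 0.65 on the deposited values. Of 10 matrix proteases and inhibitors, 1 rose with let-7a (10% of the list), 3 fell with siSfpq (30%) and 3 rose against siSfpq (30%), with the inhibitor gene Timp3 up by 1.11 with let-7a (adjusted p = 0.000453) and by 1.09 against siSfpq (adjusted p = 0.000801). Of 18 integrin adhesion adaptors, 0 were called with let-7a, 1 rose and 2 fell with siSfpq (16.7%), and 0 were called against siSfpq. Of the 15 calls of list genes and Sfpq named here, all 15 were lost without replicate 4 or without arrays 1 and 2 of every condition, and all 15 stayed without replicate 3 and with replicates blocked.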

How the data were processed

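Total RNA of P19 cells (control, let-7a, siSfpq and let-7a + siSfpq, 4 arrays each) was labelled with Cy3 and hybridized to 1-colour Agilent arrays. The authors deposited the scanner output of each array, whose processed signal intensity was made by Feature Extraction 10.7.3.1 per the file headers, and a table of log2 values, which the methods state to be quantile normalized with limma. The deposited log2 values ranked spots exactly as the median spot signal did, with column medians of 6.05 to 6.06. They were used as an alternative.

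Processed intensity was taken to log2, quantile normalized over the 16 arrays and averaged over the spots of a probe and over the probes of a gene name, after spots with outlier flags were set aside and probes that were not well above background on all 4 arrays of a condition, named by a genome region or lacking a value on an array were left out. The spread of a single array, estimated robustly from the difference between arrays 1 and 2, was 0.054 to 0.071. From other pairs of arrays it was 0.116 to 0.375, and the SD between spots of 1 probe was 0.083 to 0.088. These arrays were averaged, leaving 12 samples.

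Conditions were compared with limma (version 3.58.1, R 4.3.3; lmFit and eBayes with an intensity trend, all 4 conditions in 1 fit, Benjamini-Hochberg over 19592 genes). With 3 samples against 3, an exact permutation test of a single gene cannot go below p = 0.1. Same-numbered samples deviated together from their condition means (correlations of 0.546 to 0.710 for arrays 1 and 2, 0.459 to 0.713 for replicate 3 and 0.293 to 0.471 for replicate 4), so a fit with the replicate as a block was run as well. Arrays 1 and 2 of all conditions were on 1 slide and arrays 3 and 4 on another. The methods name 3 replicates where 4 arrays were given. In values simulated from these means with 200 genes changed by 1 log2 unit in siSfpq against control, 111 were called without the block and 166 with it, and 1 and 7 unchanged genes were called.

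Members, lists and comparisons were chosen with earlier results of these data known. In each comparison up to 8 called members with the largest change were named, and Col1a1, Col1a2, Col4a1, Col4a2, Lama1, Lama5, Lamb1, Lamc1, Itga5, Itga6, Itgav and Itgb1 were given whether called or not for let-7a and for siSfpq against control. The remaining called members were added, except for 1 result that is not reported here. A member was also to be named if its probes were called in opposite directions, which occurred for 0 of the 16 members with 2 or more probes. Called or not, probes changed in opposite directions for 4 of the 16 with let-7a and 5 with siSfpq. With both reagents it was 4 against control, 5 against let-7a and 7 against siSfpq. With let-7a, 1 Col9a1 probe changed by 0.90 (adjusted p = 0.00652, limma at the probe level) and the other by -0.31 (adjusted p = 0.633). Their mean was not called. Genes of other lists were named where called with a change of at least 1. Leukocyte, endothelium and extraembryonic endoderm marker lists were counted and no result rests on them: 6 of 10, 4 of 8 and 4 of 12 of their genes were above background on all control arrays. Their summed intensities in control samples ran from 1760 to 2300, 628 to 695 and 510 to 605. In let-7a samples they ran from 1650 to 2180, 829 to 924 and 649 to 797, so the endothelium and endoderm sums did not overlap. The part of these shifts in the members' changes was not tested. Probe positions are those of the files (mm9), and no annotation of that build was used, so the exon of a probe is not given. Alternatives tried were other scalings, background correction, filters, probe choices, blocks, sample sets and thresholds.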

Additional observations from a re-analysis of the deposited data

How the results depend on the processing

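The counts of members called in the 6 comparisons are given in the order let-7a against control, siSfpq against control, let-7a + siSfpq against control, against let-7a and against siSfpq, and the interaction; they were 6, 11, 1, 2, 11 and 0 in the report. Pairing samples by number (the replicate block) gave 17, 27, 6, 11, 25 and 0. The block without replicate 3, chosen after seeing the data, gave 43, 41, 28, 31, 50 and 28, beside 47.4%, 62.2%, 35.8%, 42.9%, 62.2% and 39% of all genes. All 16 arrays counted separately gave 17, 30, 8, 17, 25 and 3, with arrays 1 and 2 each given full weight, beside 18.7%, 34.6%, 7.19%, 13.2%, 31.2% and 0.801%. With no filter on dim probes, where more genes were tested, they were 3, 5, 1, 1, 6 and 0 (3.29%, 4.41%, 0.553%, 0.877%, 2.84% and 0.0133% of all genes), and with only the groups compared in the fit 11, 0, 2, 1, 0 and 0 (8.11%, 0%, 1.37%, 2.4%, 1.02% and 0%). Requiring a change of at least 1 left 3, 4, 0, 0, 3 and 0 (2.83%, 4.58%, 0.75%, 1.63%, 3.25% and 0% of all genes). With normexp 10 were called with let-7a (7.03% of all genes), 2 with both reagents against control (1.26%) and 5 against let-7a (1 higher; 3.87%), with scaling to the 75th percentile 1 against let-7a (1 higher; 2.41%), and without the intensity trend 2 with both against control (1.33%); the cause was not tested. Leaving out replicates or single samples moved the counts from 0 to 26, 0 to 35, 0 to 15, 0 to 21, 0 to 37 and 0 to 24.

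None of the 31 calls of single members changed direction under any setting in which the gene was tested; probes well above background on all arrays left 28 of them, and all 28 were kept. All 31 stayed past the threshold with the replicate block, without replicate 3 and with 16 arrays, and all 31 were lost without replicate 4 and without arrays 1 and 2. Leaving out replicate 3, like leaving out replicate 4 or arrays 1 and 2, leaves 2 samples a condition, and the cause of the difference was not tested. No filter lost 15, the fit on the groups compared 24, the 75th percentile and no trend 5 each, normexp and the brightest probe 2 each, and the slide as a block and the deposited values 1 each. Of uncalled changes printed as values, some changed sign. For siSfpq, Lamb1 was 0.13 with the 75th percentile, 0.0057 with normexp, 0.016 on the deposited values and 0.0030 with 16 arrays, and -0.050 to 0.035 over the settings that left out samples; Lama1 was 0.088 with the 75th percentile and -0.26 to 0.053 when samples were left out; Itgb1 ran from -0.025 to 0.087 in those settings. For let-7a, Itga6 was 0.10 with its brightest probe and Lama1 ran from -0.27 to 0.037 when samples were left out. The number of samples limits the precision of all these values, and dim genes such as Col12a1, Lama2 and Ddr2 are limited by background.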
